A study of Drosophila melanogaster with 10 samples.

Results

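In brains of male flies, 77 genes known by a CG number stood at least 4 times higher on HPLC than on LPHC. HPLC was a high protein low carbohydrate diet and LPHC a low protein high carbohydrate diet. A CG number is the identifier that a fly gene receives when it is predicted from the genome, and many genes keep it because little is known of their products. Of 11621 genes listed by the authors, 4978 carried such a number in the form used here. A gene was a member if its mean over the 10 libraries was at least 50 normalised counts, its HPLC mean was at least 4 times its LPHC mean, and its lowest HPLC library was above its highest LPHC library. The rule left out 10 CG-numbered genes by name, 6 of which passed these limits. Because the diet contrast chose the members, their differences between the diets are given as a description, with no test. All 77 had a mean above the filter of 10 used for the tests of other genes.

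The HPLC group held 5 libraries from flies fed 1 part protein to 2 parts carbohydrate, and the LPHC group 5 libraries from flies fed carbohydrate without protein (0 to 1). Both diets held 360 g per L, and per the series design HPLC was the diet with higher and LPHC the diet with lower taste responses to sucrose. Carbohydrate differed between the diets along with protein, so the parts of protein and carbohydrate cannot be told apart. All flies were 4 to 7 days old males with the Wild-type (W1118) genotype, a laboratory stock with white eyes. Nothing in the labels states that libraries within a diet are separate cultures, or how many brains went into each, so the p-values below cover only variation among the libraries, and it may be technical.

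Protein in food reaches the tissues as amino acids, which are built into new proteins or broken down for energy. In the fly much of this turnover takes place in the fat body, the tissue that stores fat and glycogen, makes many proteins of the haemolymph and also lines the head capsule around the brain. Many enzymes of amino acid, sugar and lipid metabolism, and secreted inhibitors that hold haemolymph proteases in check, are made there. The members are described below in the order of what their products do, as far as that is known.

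The libraries held between 19834344 and 38402635 reads in genes, and 3 reads were worth between 2.09 and 4.19 normalised counts. Of 9896 genes whose mean reached 10, limma called 4051 between the diets (40.9%), 2185 higher (22.1%) and 1866 lower (18.9%) on HPLC. That split depended on scaling: upper-quartile scaling gave 1684 higher and 3832 lower, and quantile normalization 1684 and 3894. On the log2 scale the median gene differed by −0.03 with the authors' scaling and −0.14 under upper-quartile scaling. The 12 neuron markers took 0.855% of normalised counts on HPLC and 0.975% on LPHC. Photoreceptor markers, which belong to the eye, took 9.75% on HPLC and 11.8% on LPHC, although the labels name brain only.

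The limits of the rule were passed by 188 of the 8823 genes whose mean reached 50 (2.13%). Among CG-numbered genes the count was 83 of 3203 (2.59%), and among genes with other names 105 of 5620 (1.87%). With the same limits turned round, 0 of the 3203 CG-numbered genes were 4-fold lower on HPLC. The ratio of the HPLC mean to the LPHC mean ran from 4.02 to 55.6 over the members, with a median of 6.82. Over all genes tested the median ratio was 0.982, and over all CG-numbered genes tested 0.974. Of the members, 21 were below 5-fold, 42 between 5- and 10-fold, 10 between 10- and 20-fold and 4 above 20-fold.

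**Figure D1:**
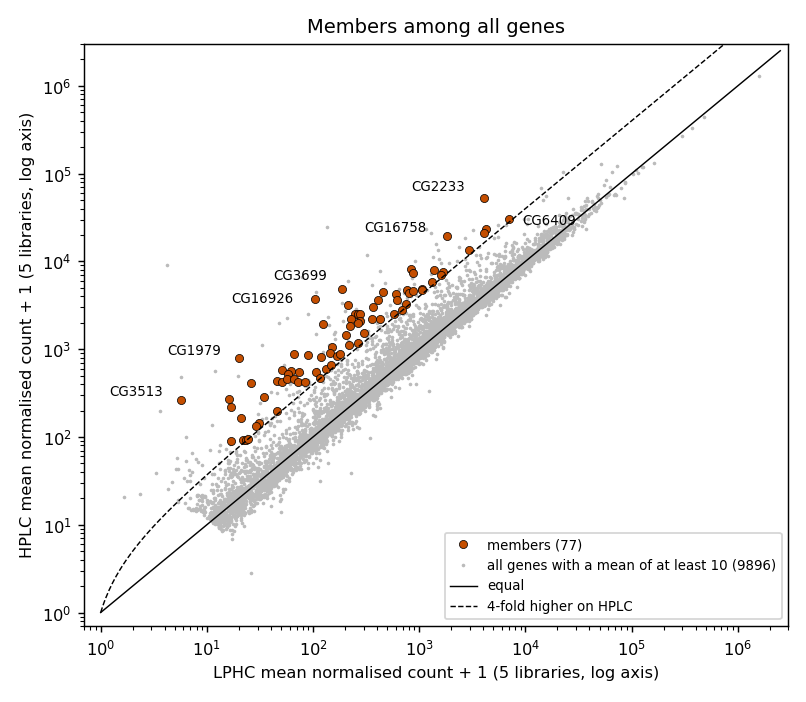
Mean normalised count plus 1 on HPLC (vertical) and LPHC (horizontal), 5 libraries each, both axes logarithmic, for the 9896 genes tested (grey) and the 77 members (orange). The solid line marks equal means and the dashed line a 4-fold higher HPLC mean; the members lie above the dashed line, with CG3513 lowest on LPHC and CG2233 highest on HPLC.

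Together the members took 0.926% to 1.15% of the normalised counts of the HPLC libraries, against 0.158% to 0.185% of those of the LPHC libraries. The means were 1.07% ± 0.0932 and 0.171% ± 0.0115 (SD, n = 5 each), a ratio of 6.27. Since whole samples were measured, more cells of a type and more RNA per cell cannot be told apart. A product could be assigned to 41 members from background knowledge of their families, and the other 36, called members without a role given, were placed in no class of enzymes, carriers or inhibitors. RefSeq's gene table held all 77, and for 7 of them it gave a newer symbol: hoka, P5CS, Daao2, Srg3, Gcat, Bcat and Tmlh.

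**Figure D2:**
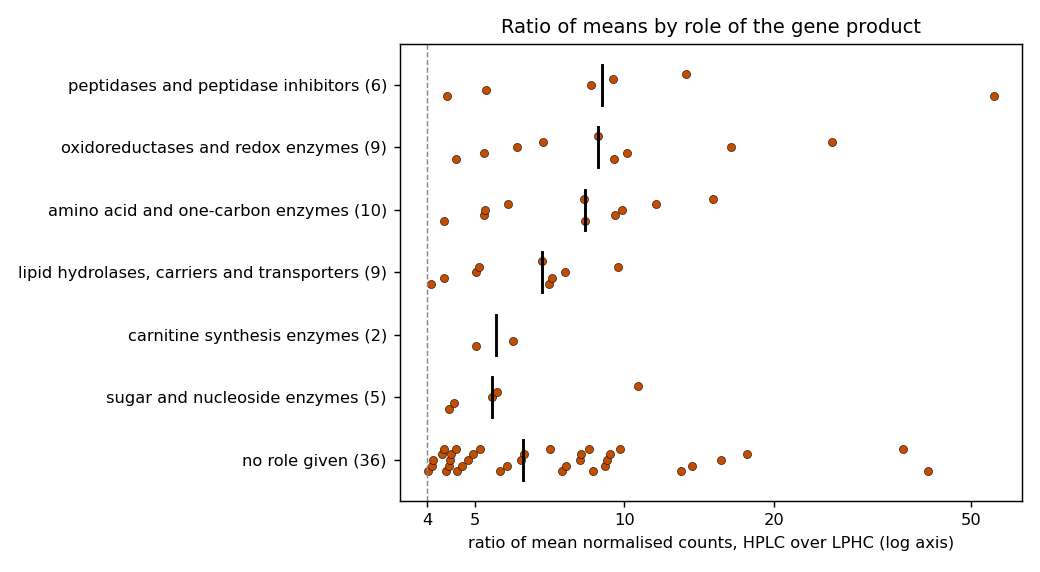
Ratio of the HPLC mean to the LPHC mean for each member (points, logarithmic axis), grouped by the role of the product with the number of members in parentheses. Thick bars mark group medians and the dashed line the 4-fold limit of the rule; medians run from 5.42 for sugar and nucleoside enzymes to 9.03 for peptidases and their inhibitors.

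Peptidases and peptidase inhibitors held the member with the largest ratio, CG3513, which encodes a small protein of the Kunitz type, a fold that blocks serine proteases. CG3513 had 230.3, 194, 322, 292 and 284 normalised counts in HPLC replicates 1 to 5, against 2.78, 5.08, 6.98, 4.29 and 4.66 in LPHC replicates 1 to 5 (25 reads in the 5 LPHC libraries together). The LPHC values lie near the worth of 3 reads, so the 55.6-fold ratio of means rests on few LPHC reads, while the lowest HPLC library had 194. CG16704, another Kunitz-type gene, is the gene next to CG3513 in the RefSeq order. CG16704 had 424, 337, 469, 371 and 543 on HPLC, against 42.4, 42.1, 34.9, 50.4 and 56 on LPHC, a ratio of 9.5. CG16704 was the more abundant gene of the pair on each diet per kilobase of transcript (1225 and 626 normalised counts per kilobase on HPLC, 129 and 11.3 on LPHC).

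The metallocarboxypeptidase gene CG4408, whose product trims amino acids from the ends of proteins, was 13.3-fold higher. CG4408 had 899.9, 770.2, 806, 854 and 1026 on HPLC, against 64.7, 57.3, 54.4, 56.8 and 94.2 on LPHC. The LPHC group had 1 high library, replicate 5. CG31313, of the cystatin family that inhibits cysteine proteases, was the most abundant gene of this class and had the smallest ratio of the 6, with 7042 ± 877 on HPLC and 1605 ± 119 on LPHC (SD, n = 5 each). CG30002, which RefSeq also lists as serine protease SP246, was 8.56-fold higher, and CG6067, listed as serine protease homologue SPH254, 5.27-fold higher.

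**Figure D3:**
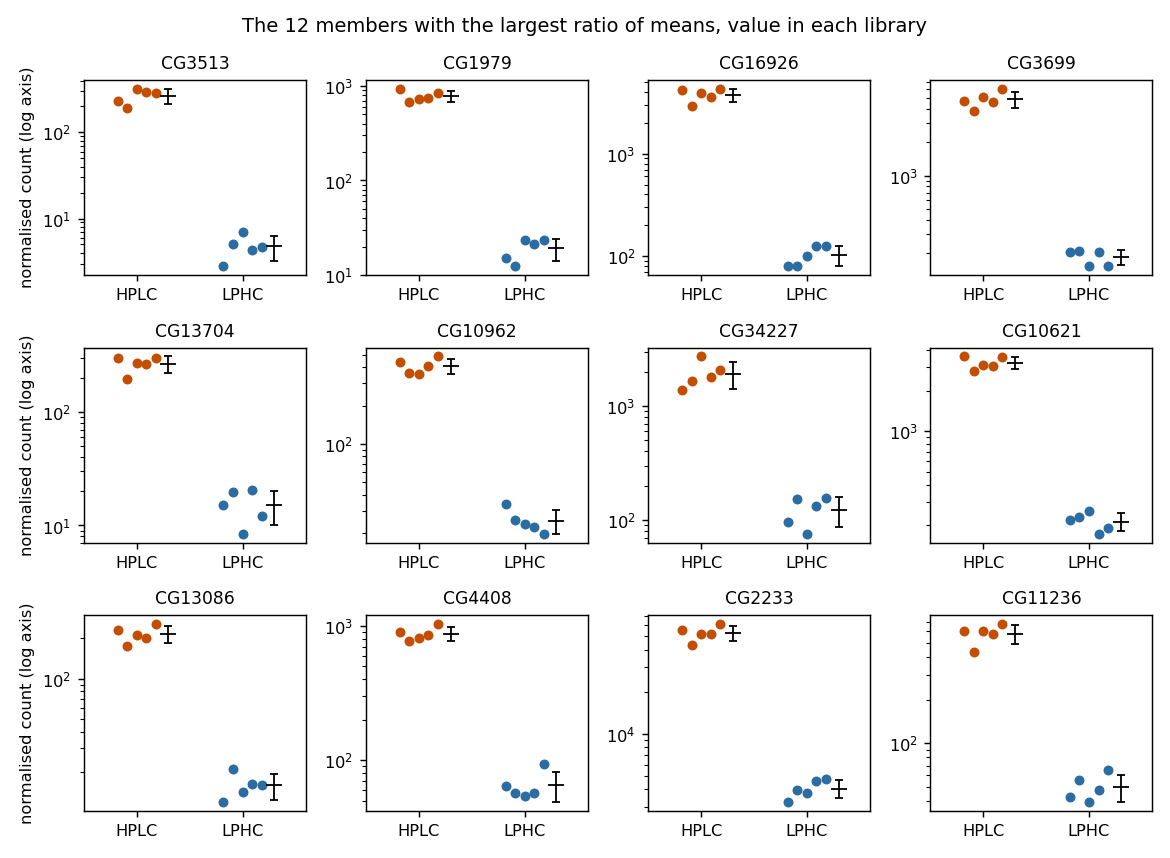
Normalised counts (logarithmic axes, each panel with its own range) of the 12 members with the largest ratio of means; points are libraries, HPLC replicates 1 to 5 on the left and LPHC replicates 1 to 5 on the right, and bars show the mean ± SD (n = 5). As the rule requires, the 5 HPLC libraries sit above the 5 LPHC libraries in each panel. The ratio of means runs from 55.6-fold for CG3513 to 11.6-fold for CG11236.

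Enzymes that make or break down amino acids were the largest class with a known role, 10 members with ratios from 4.34 to 15.1 and a median of 8.31. CG10621, of the homocysteine S-methyltransferase family that forms methionine, led them. CG10621 had 3586, 2790.2, 3099, 3049 and 3524 on HPLC, against 218, 229, 257, 172 and 191 on LPHC. The next ratio was that of CG11236 (Daao2), a D-amino acid oxidase. CG11236 had 600.3, 434, 601, 574 and 673 on HPLC, against 42.4, 55.2, 39.1, 47.2 and 65.3 on LPHC, a ratio of 11.6. In both genes the lowest HPLC library was HPLC replicate 2. CG1544, which resembles the E1 subunit of the 2-oxoglutarate dehydrogenase complex, was 9.88-fold higher.

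Of enzymes that act on threonine or its relatives, CG10361 (Gcat), glycine C-acetyltransferase, stood at 849 ± 116 on HPLC and 88.9 ± 22.2 on LPHC (9.55-fold), and CG10184, of the threonine aldolase family and also listed as HTMLA in RefSeq, at 3013 ± 271 on HPLC and 362 ± 18 on LPHC (8.32-fold; SD, n = 5 each). Of enzymes in the breakdown of lysine, tryptophan and branched-chain amino acids, the glutaryl-CoA dehydrogenase gene CG9547 was 8.3-fold higher. CG3902, a short/branched-chain acyl-CoA dehydrogenase, was 5.82-fold higher, and CG1673 (Bcat), the branched-chain amino acid transaminase, 4.34-fold higher. Synthetic enzymes were members too. CG7470 (P5CS), which makes the precursor of proline from glutamate, ranked 4 by HPLC mean among the members. CG7470 had 23727, 17022, 21696, 21121 and 22155 on HPLC, against 3564, 4045, 4342, 4132 and 4157 on LPHC. Its LPHC values were close together (CV 7.2%), and the lowest HPLC library was replicate 2. CG11899, phosphoserine aminotransferase of serine synthesis, averaged 4604 ± 644 on HPLC and 879 ± 46 on LPHC (5.24-fold).

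Oxidoreductases and redox enzymes gave 9 members with ratios from 4.57 to 26.3 and a median of 8.83. Of these, 4 belong to the short-chain dehydrogenases and reductases, a large family that acts on alcohols, ketones and lipids. CG3699 had the highest ratio of the 4. CG3699 had 4705, 3794, 5078, 4619 and 6067 on HPLC, against 205, 208, 154, 205 and 152 on LPHC. CG10962 came next at a ratio of 16.4. CG10962 had 438, 362, 354, 411 and 485 on HPLC, against 34.1, 25.4, 23.7, 22.5 and 19.6 on LPHC. For neither gene did the diets come close to each other: the lowest HPLC library was 18.2 times the highest LPHC library for CG3699 and 10.4 times for CG10962. The other two were CG7322 (10.1-fold) and CG3603 (4.57-fold).

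The aldo-keto reductase gene CG18547 averaged 2494 ± 294 on HPLC and 261 ± 13.2 on LPHC, and the aldehyde dehydrogenase gene CG31075 3617 ± 244 on HPLC and 409.7 ± 36.6 on LPHC (SD, n = 5 each). CG9512, of the glucose-methanol-choline oxidoreductases, had the widest spread on LPHC among the members (CV 42.6%) and the narrowest gap between the diets. CG9512 had 2709, 5732, 5413, 5362 and 4255 on HPLC, against 649, 1355, 623, 553 and 679 on LPHC. On both diets the library labelled replicate 2 was the highest, and the lowest HPLC library was 2.0 times the highest LPHC library. CG12896, a peroxiredoxin that removes peroxides, was 5.21-fold higher, and CG4306, a gamma-glutamylcyclotransferase of glutathione turnover, 6.87-fold higher.

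Sugar and nucleoside enzymes were 5, with ratios from 4.43 to 10.6. CG16758, a purine nucleoside phosphorylase that splits nucleosides into base and ribose phosphate, had the largest. CG16758 had 21367, 16507, 20426, 19804 and 19608 on HPLC, against 1714, 1868, 1636, 1908 and 2063 on LPHC. CG8036, a transketolase of the pentose phosphate pathway, had more reads and a smaller ratio, 5.54. CG8036 had 24465, 20022, 22184, 22839.6 and 27186 on HPLC, against 3697, 4639, 3833, 4229 and 4679 on LPHC. Per kilobase of transcript these genes stood at 11570.5 and 9362 normalised counts on HPLC. The alpha-galactosidase gene CG7997 (5.42-fold), the beta-glucosidase family gene CG9701 (4.53-fold) and CG11594, a carbohydrate kinase of the FGGY family (4.43-fold), completed the class.

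Lipid hydrolases, carriers and transporters gave 9 members with a median ratio of 6.82 and none above 9.7. CG15096, a solute carrier of the major facilitator superfamily, averaged 4433 ± 641 on HPLC and 457 ± 54.1 on LPHC and had that largest ratio. CG5966, of the triacylglycerol lipase family, was 7.58-fold higher and the carboxylesterase gene CG4757 4.33-fold higher. Both scavenger receptors of the CD36 family among the members, which bind lipoproteins and lipids, are given by their means: CG2736 averaged 4266 ± 507 on HPLC and 598 ± 58.4 on LPHC, and CG3829 2774 ± 356 on HPLC and 681 ± 57.2 on LPHC (SD, n = 5 each). CG5958, with the CRAL-TRIO fold that binds small lipids such as retinoids and tocopherol, was 7.06-fold higher. The others were the organic cation transporter family gene CG8654 (6.82-fold), the sugar transporter family gene CG8249 (5.1-fold) and CG9396, of the mitochondrial pyruvate carrier family (5.03-fold). Carnitine carries fatty acids into mitochondria, and 2 members were classed as enzymes of its synthesis. CG4335 (Tmlh), trimethyllysine hydroxylase, averaged 424 ± 71.6 on HPLC and 71.1 ± 11.1 on LPHC. CG5321, gamma-butyrobetaine hydroxylase, averaged 842 ± 107 on HPLC and 167 ± 24.6 on LPHC. CG10184, listed as HTMLA in RefSeq, was counted with the amino acid enzymes, so this class may be incomplete.

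The 36 members without a role given included the genes ranked 2 and 3 by ratio, CG1979 and CG16926, and those ranked 1 and 2 by HPLC level, CG2233 and CG6409. CG1979 had 937, 678, 733, 739.9 and 849 on HPLC, against 15.3, 12.3, 23.7, 21.4 and 23.3 on LPHC, a ratio of 40.9. CG1979 also has the longest coding sequence among the members, 1047 codons in the Ensembl annotation. CG16926 had 4145, 2889, 3870.4, 3538 and 4250.2 on HPLC, against 80.7, 79.8, 102, 127 and 125 on LPHC, a ratio of 36.4. CG16926 overlaps another member, CG15120, on the opposite strand, and whether reads were counted by strand is not given, so reads of this pair may be shared. CG15120 had 181, 140.2, 197, 141 and 152 on HPLC, against 18.8, 25.4, 18.1, 11.8 and 25.2 on LPHC. CG15120 was thus 8.17-fold higher at a much lower level, 152 against 3819 normalised counts per kilobase on HPLC for CG16926.

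CG2233 had the highest HPLC level of the 77, both in normalised counts and per kilobase of transcript (35497 on HPLC and 2732 on LPHC). CG2233 had 55205, 42876, 52075, 51637 and 60887 on HPLC, against 3237, 3963, 3728, 4578 and 4709 on LPHC. The HPLC libraries ranked replicate 5, 1, 3, 4 and 2 from high to low, and without this gene the members' share was 0.893% on HPLC and 0.157% on LPHC. CG6409, the next in HPLC counts, had a ratio near the limit, 4.3. CG6409 had 27924, 29935, 35407, 28512 and 29490.0 on HPLC, against 6925, 8959.8, 5614, 6126 and 7583 on LPHC. Its lowest HPLC library was 3.12 times its highest LPHC library, replicate 2.

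Among the other leading ratios were CG13704 (17.6-fold), CG34227 (15.7-fold) and CG13086 (13.7-fold). CG13704, placed in none of the classes above, is named hoka in RefSeq, a protein of the smooth septate junctions that seal the fly gut. CG13704 had 301, 195, 274, 264 and 301 on HPLC, against 15.3, 19.6, 8.37, 20.4 and 12.1 on LPHC. CG34227 had 1379.9, 1654, 2723, 1798 and 2061 on HPLC, against 96.7, 152, 75.4, 134 and 156 on LPHC. CG13086 had 233, 175, 214, 200.1 and 256 on HPLC, against 11.8, 21.1, 14, 16.1 and 15.9 on LPHC. The diets came closest in CG13086, whose lowest HPLC library was 8.3 times its highest LPHC library. CG34227 varied more than most members on HPLC, with a CV of 26.5% beside a median of 12.7% over the members. Genes of high level and no role given were CG17108 (13479 ± 2424 on HPLC and 2931 ± 327 on LPHC), CG6503 (8185 ± 1419 on HPLC and 836 ± 83.8 on LPHC), CG13315 (7485 ± 1194 on HPLC and 1681 ± 159.7 on LPHC) and CG15293 (7363 ± 898 on HPLC and 869 ± 97.9 on LPHC; SD, n = 5 each). CG6503 has 62 codons, and its RefSeq synonym comes from a set of putative non-coding RNAs. CG5819 (4.95-fold) is likened there to tartan, a cell surface protein with leucine-rich repeats.

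The other members without a role given had ratios below 10 over a wide range of levels. Between 7- and 10-fold higher were CG16965 (9.33-fold), CG16898 (9.21-fold), CG9119 (9.12-fold), CG17107 (8.63-fold), CG32695 (8.14-fold), CG1468 (7.61-fold), CG33307 (7.49-fold) and CG30431 (7.09-fold). The highest of these in reads, CG9119, averaged 2523 ± 269 on HPLC and 277 ± 15.5 on LPHC (SD, n = 5 each). Between 5- and 7-fold higher were CG33493 (6.29-fold), CG3246 (6.2-fold), CG33926 (5.8-fold), CG8907 (5.61-fold) and CG33120 (5.13-fold), of which CG33926 is named Srg3 in RefSeq and averaged 3593 ± 753 on HPLC and 619 ± 99.8 on LPHC. Below 5-fold were CG30148 (4.85-fold), CG14502 (4.7-fold), CG42369 (4.58-fold), CG14629 (4.47-fold), CG14567 (4.43-fold), CG14400 (4.37-fold), CG42751 (4.33-fold), CG42821 (4.11-fold), CG42846 (4.1-fold) and CG15717 (4.02-fold). CG14629 and CG42369 had the highest normalised counts of the last set, with 5895 ± 665 on HPLC and 1317 ± 281 on LPHC for CG14629 and 4847 ± 706 on HPLC and 1057 ± 172 on LPHC for CG42369, whereas CG42821 had 92.6 ± 18.9 on HPLC and 22.5 ± 4.09 on LPHC.

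Coding sequences were shorter in the median for members without a role given, at 226 codons in the Ensembl annotation, against 413 for members with one. Of the 36, 11 were shorter than 150 codons (30.6%), against 3 of the 41 (7.32%). That share was 11.4% over the CG-numbered genes tested and 8.03% over all genes tested. The 105 genes with other names that passed the same limits had a median of 469 codons, the CG-numbered genes tested 388 and all genes tested 467. The shortest was CG42751 at 43 codons, with a normalised count of 91.1 ± 9.65 on HPLC and 21 ± 2.93 on LPHC. These lengths are a description, and the annotation may differ from the one used for counting.

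The fold limit divided genes of like values. Just inside it were CG15717 (93.9 ± 14 on HPLC and 23.4 ± 6.01 on LPHC, 4.02-fold), CG3829 (4.07-fold) and CG42846 (4.1-fold). Just outside it were CG16756 (669 ± 111 on HPLC and 168 ± 18 on LPHC, 3.99-fold), CG32191 (3.98-fold) and CG4716 (3.97-fold). The mean limit left out 35 CG-numbered genes that passed the other limits. The nearest was CG32335, with 83.1 ± 15.1 on HPLC and 15.6 ± 3.05 on LPHC and a mean over the 10 libraries of 49.3. Inside that limit the lowest mean was that of CG8907, 52.9. The overlap condition kept out 0 CG-numbered genes that passed the fold and mean limits.

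Within a diet, the same libraries were high or low for many of the members. HPLC replicate 2 was the lowest HPLC library for 60 of the 77 members (77.9%), while it was the lowest for 16.8% of all genes tested. HPLC replicate 5 was the highest for 42 members (54.5%), against 16.4% of all genes tested. Relative to the mean of the HPLC libraries, the median member was at −0.24 on the log2 scale in replicate 2 and 0.14 in replicate 5. The median of all genes tested differed from that mean by 0.00 and 0.02 in these libraries. On LPHC, replicate 5 was the highest library for 31 members (40.3%), against 15.8% of all genes tested. LPHC replicate 1 was the lowest for 29 members (37.7%), against 25.3% of all genes tested. The 105 genes with other names past the same limits had 85 lowest in HPLC replicate 2 and 55 highest in HPLC replicate 5. Of 12 fat body markers, 10 were lowest in HPLC replicate 2 and 11 highest in HPLC replicate 5, with median differences of −0.23 and 0.20. HPLC replicate 2 had the most reads of the HPLC libraries, 33863333, and HPLC replicate 5 had 28171597; the part of depth or of fat body RNA in the order of the libraries was not tested. These differences were small beside those between the diets: without HPLC replicate 2 the median ratio of the members was 7.13, and without HPLC replicate 5 6.6.

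**Figure D4:**
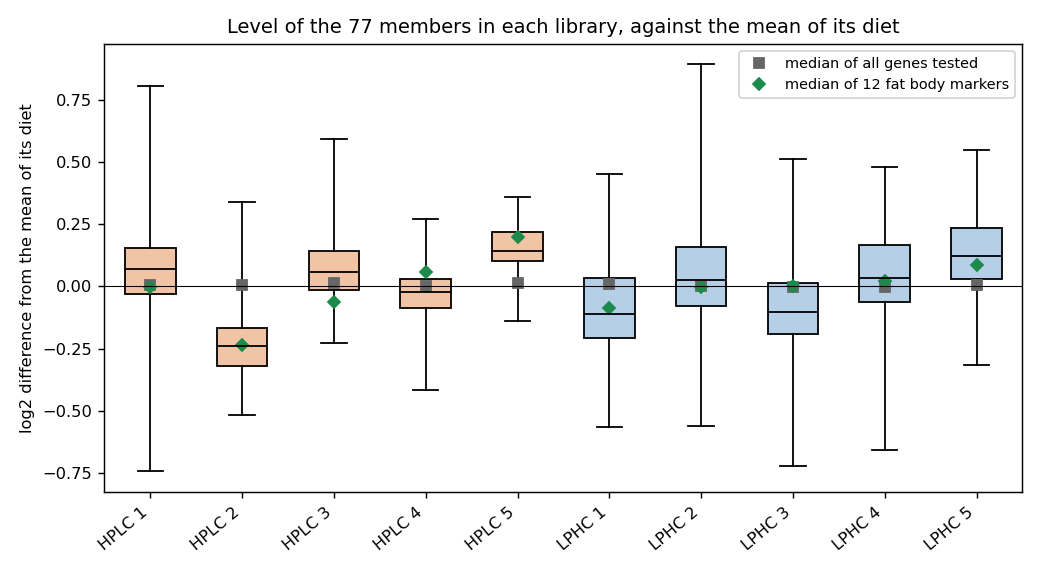
Difference of each member from the mean of its diet on the log2(normalised count + 1) scale, by library (boxes, quartiles and median; whiskers, full range; HPLC orange, LPHC blue), with the medians of all genes tested (grey squares) and of 12 fat body markers (green diamonds). The box of HPLC replicate 2 lies lowest, with a median of −0.24, and that of HPLC replicate 5 highest, at 0.14, while the grey squares stay near 0.

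Genes next to a member on the chromosome were not chosen by the rule and were tested. Taking the nearest gene on either side in the RefSeq order, 72 genes that were neither members nor overlapped one were tested with limma. Of these, 26 were higher and 11 lower on HPLC, so 36.1% were called higher, against 22.1% of all genes tested, and 51.4% were called in either direction, against 40.9%. The counts were 22 higher and 19 lower of the 72 under upper-quartile scaling, where all 9896 genes tested gave 1684 and 3832. Under quantile normalization they were 21 and 19, and all genes tested gave 1684 and 3894. Their median log2 fold change was 0.07 as deposited and −0.05 under upper-quartile scaling, beside −0.03 and −0.14 for all genes.

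The strongest of these neighbours was Sodh-1, a sorbitol dehydrogenase next to CG1979, which rose to 11933 ± 1476 on HPLC, against 321 ± 13.5 on LPHC (log2 fold change 5.21 ± 0.07, SE; limma adjusted p = 6.25e-18). Prx2540-1 (Prx6b in RefSeq), a peroxiredoxin next to the peroxiredoxin gene CG12896, averaged 159.7 ± 16.1 on HPLC and 31.9 ± 2.86 on LPHC (2.28 ± 0.12, limma adjusted p = 8.59e-11). Reads of near-identical copies in this family may have been split between genes, so its values are uncertain. CG1773, next to the serine protease gene CG30002, averaged 67.7 ± 8.81 on HPLC and 12 ± 2.16 on LPHC (2.41 ± 0.18, limma adjusted p = 7.47e-09). Nepl6, a neprilysin-like peptidase gene next to CG42369, rose by 2.28 ± 0.14 on the log2 scale (limma adjusted p = 9.66e-10). The others among the 10 with the smallest adjusted p were Phk-3 (1.43 ± 0.07), CG31769 (1.27 ± 0.07), CG34454 (1.38 ± 0.08), the maltase gene Mal-B2 (1.08 ± 0.07), the immune-regulated catalase gene Irc (1.08 ± 0.08) and CG5973 (1.01 ± 0.07), which like its neighbour CG5958 has a CRAL-TRIO fold (limma adjusted p at most 4.22e-09 for these 6). For each of these 10 genes the 5 HPLC libraries were above the 5 LPHC libraries. Picking them by smallest adjusted p made that likely, so it is no separate result. Over all genes tested it held for 17.4%.

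Neighbours that did not pass included msl-2, next to CG3246 (−0.14 ± 0.06, limma adjusted p = 0.0663), Dbp73D, next to CG9701 (0.27 ± 0.12, 0.0694), and NetA, next to CG5321 (−0.22 ± 0.11, 0.119). Pairs of members next to each other numbered 2 in the RefSeq order, CG3513 with CG16704 and CG15120 with CG16926, and a further pair, CG32695 and CG1468, had 1 gene between them. CG32695 had 502, 345, 538, 419 and 454 on HPLC, against 61.9, 45.7, 64.2, 59 and 46.6 on LPHC. CG1468 had 2196, 1615, 2160.3, 2194 and 2232 on HPLC, against 247, 282, 254, 281 and 302 on LPHC. HPLC replicate 2 was the lowest HPLC library for both.

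In all, 30 members overlap another gene of the RefSeq table, so reads from the overlapping stretch cannot be assigned with certainty. Of 14 tested nearest genes that overlap a member, 4 were higher (28.6%, against 22.1% of all genes tested) and 4 lower. Against 40.9% of all genes tested, 57.1% of these 14 genes were called in either direction. They included emp, next to the CD36 family gene CG3829 and of the same family, higher by 0.84 ± 0.07 on the log2 scale (SE, limma adjusted p = 1.79e-08), and fs(1)M3, which overlaps CG6067 on the opposite strand and was lower (−0.86 ± 0.25, 0.0109). Both were chosen after their values were seen.

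Lists of markers for other cell types were tested beside the members. All 12 fat body markers tested were called higher on HPLC by limma (100%, against 22.1% of all genes tested). Their median log2 fold change was 2.44. Their sum took 0.392% to 0.496% of normalised counts on HPLC, against 0.0616% to 0.081% on LPHC, a ratio of means of 6.29. The alpha-glucosidase gene tobi (7.50 ± 0.08), the glycine methyltransferase gene Gnmt (5.39 ± 0.09), the storage protein gene Lsp1beta (6.44 ± 0.12) and the lipid droplet gene Lsd-1 (2.60 ± 0.08) led by adjusted p (SE, limma adjusted p at most 1.41e-13). Of the list's other genes, 3 had means under 10 and were not tested, and in each the HPLC mean was the lower one: Lsp1gamma (2.15 on HPLC and 3.05 on LPHC), Fbp1 (7.93 on HPLC and 11.4 on LPHC) and Fbp2 (1.19 on HPLC and 1.87 on LPHC). Lsp1alpha is not analysed here. Over the 12 tested genes the log2 fold changes ranged from 0.43 to 11.34, the highest being that of the storage protein gene Lsp2, whose LPHC mean of 3.25 is near the worth of 3 reads. The part of fat body RNA in the values of the members was not tested.

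Of 13 haemocyte markers 7 were higher (53.8%, against 22.1% of all genes tested), 0 lower and 6 not called. Glt (3.47 ± 0.11), NimB5 (1.45 ± 0.14), srp (2.18 ± 0.16) and eater (1.19 ± 0.21) led by adjusted p. Not called were Hml (0.68 ± 0.31), Ppn (0.37 ± 0.32), Col4a1 (0.28 ± 0.16), vkg (0.25 ± 0.14), crq (0.14 ± 0.07) and Pxn (0.08 ± 0.07). The sum of the 13 took 0.164% to 0.185% of normalised counts on HPLC, against 0.0745% to 0.139% on LPHC. All 5 gut enzyme markers tested were higher (100%, against 22.1% of all genes tested). Amy-d (5.32 ± 0.10) and Amy-p (6.49 ± 0.28), near-identical amylase copies, were at the head, then LManI (1.56 ± 0.10) and Mal-B1 (0.96 ± 0.10). The sum of the 5 was 0.0139% to 0.0164% of normalised counts on HPLC, against 0.00267% to 0.00352% on LPHC. Jon65Aiii, a gut protease of the same list, had a mean under 10 and was not tested (1.72 on HPLC and 4.6 on LPHC), and betaTry and alphaTry are not analysed here. Of 3 oenocyte markers Desat1 (1.76 ± 0.08) and FarO (0.73 ± 0.10) were higher, and Cyp4g1, the defining one, did not pass (HPLC 99.4 ± 92.3, LPHC 183 ± 176). Their part in the values of the members was not tested.

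Of 7 glia markers 4 were higher (57.1%, against 22.1% of all genes tested) by at most 0.39, namely Gs2 (0.23 ± 0.06), wrapper (0.39 ± 0.12), Mdr65 (0.30 ± 0.10) and Eaat1 (0.14 ± 0.05), and 0 were called under upper-quartile scaling. Without HPLC replicate 2, 3 or 4 or LPHC replicate 1 or 3, left out in turn, 2 were called. Of 12 neuron markers 4 were lower (33.3%, against 18.9% of all genes tested) and 8 were not called. The 4 were para (−0.32 ± 0.08), Syt1 (−0.23 ± 0.07), Rdl (−0.22 ± 0.08) and ChAT (−0.14 ± 0.05), of which Rdl and ChAT were not called with TMM scaling. The neuron count was 2 with TMM scaling, 8 with upper-quartile scaling, 2 without HPLC replicate 2, 4 or 5, and 1 without LPHC replicate 3 or 4; without HPLC replicate 3, 1 was called higher and 2 lower. Photoreceptor markers, of the eye, also gave 4 lower of 12 (33.3%, against 18.9% of all genes tested), and 8 with upper-quartile scaling. The 4 were ninaE (−0.30 ± 0.07), Rh4 (−0.26 ± 0.06), inaC (−0.28 ± 0.09) and Rh3 (−0.19 ± 0.06). Rh3 was not called with TMM scaling or without HPLC replicate 1, 2 or 4 or LPHC replicate 1 or 5 in turn. ninaE was not called with quantile normalization, which gives the top gene of every library the same value. ninaE had the highest mean of the markers, so the method itself may have fixed this loss. Muscle markers gave 5 lower of 10 (50%, against 18.9% of all genes tested), among them wupA (−0.43 ± 0.07), Act57B (−0.44 ± 0.07), Act88F (−0.50 ± 0.08) and Tm2 (−0.29 ± 0.06). The part of these cell types in the values of the members was not tested.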

How the data were processed

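For 10 brain libraries the authors deposited a table of read counts normalised per library, that is, a signal scaled for depth. Per the submitters' processing notes reads were aligned with HISAT2. The build, annotation, counter and strand setting are not given, so far as the sources used here go. Coordinates are therefore left out. Within each library all values (100%) were whole multiples of 1 constant, within 1e-06 of a whole number relative to their size, so whole reads were recovered; the constants matched DESeq2 size factors. The table holds genes read in at least 6 libraries.

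Means carry the SD over 5 libraries. Genes outside the members were tested with limma 3.58.1 (trend, robust, two-sided) in R 4.3.3 on log2(normalised count + 1), over genes with a mean of at least 10, with Benjamini-Hochberg adjustment over all of them at 0.05. Fold changes are HPLC minus LPHC on that scale, which understates changes of low genes. edgeR 4.0.16 and DESeq2 1.42.0 on recovered reads, other scalings, pseudocounts, filters and leaving out each library were alternatives. Gene order and names came from RefSeq's table (Release 6 plus ISO1 MT), lengths from Ensembl's annotation. The fits were checked on simulated data.

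Members, lists and the rule for named genes were chosen with earlier results of these data known. The rule gives values in every library for the 12 members with the largest ratio, the 5 highest on HPLC and adjacent members, up to 10 called and 3 uncalled neighbours, and up to 4 markers a list. Further marker genes are named beside these. Protein relatives, promoter motifs and profile likeness were not analysed here.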

Additional observations from a re-analysis of the deposited data

Results flagged for a closer look

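Single libraries stood apart from the others of their diet for 7 members, by a gap to the nearest library that exceeded the 95% limit of Dixon's test for 5 samples. Chance gives about 1 such flag in 20 groups, and 12 of the 242 groups examined were flagged. CG9512 was 1355 in LPHC replicate 2, against 553 to 679 in the other LPHC libraries. CG8907 was 151 in HPLC replicate 1, against 71.8 to 77.9 in the other HPLC libraries. CG4408 was 94.2 in LPHC replicate 5, against 54.4 to 64.7 in the other LPHC libraries. CG6409 was 35407 in HPLC replicate 3, against 27924 to 29935 in the other HPLC libraries. Low values were seen for the other three members. CG1468 was 1615 in HPLC replicate 2, against 2160.3 to 2232 in the other HPLC libraries. CG10361 was 648 in HPLC replicate 2, against 857 to 920.4 in the other HPLC libraries. CG10184 was 330.3 in LPHC replicate 2, against 367 to 372 in the other LPHC libraries. The libraries of CG1468 and CG10361 are the same, HPLC replicate 2, which was also the lowest HPLC library for 60 of the 77 members.

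Of the marker genes, 5 were flagged in the same way. eater was 96 in LPHC replicate 1, against 198 to 232 in the other LPHC libraries. srp was 458 in LPHC replicate 1, against 712 to 813 in the other LPHC libraries. inaC was 18114 in HPLC replicate 1, against 24405 to 25447 in the other HPLC libraries. wupA was 7456 in HPLC replicate 3, against 6047 to 6439 in the other HPLC libraries. Act88F was 867 in HPLC replicate 5, against 636 to 693 in the other HPLC libraries. LPHC replicate 1 had the lowest summed level of haemocyte markers, 0.0745% of normalised counts.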

How the results depend on the processing

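The number of members was 81 with TMM scaling, 72 with upper quartiles, 71 with quantile normalization and 81 with medians, and 75 to 84 when single libraries were left out. It was 122 at a limit of 3-fold and 56 at 5-fold, which follows from the limit itself. The median ratio of the 77 stayed between 6.23 and 7.13 over all alternatives, and their share of HPLC counts was 0.893% without CG2233 and 1.06% to 1.11% when single libraries were left out. Of 1155 refitted log2 fold changes of members, 10 differed from the reported value by more than 1 SD; the choice of members fixed their sign. Leaving out single libraries gave 3448 to 4144 called genes, 33 to 37 called neighbours, 2 to 3 glia, 1 to 6 neuron, 3 to 4 photoreceptor, 5 to 6 muscle and 5 to 8 haemocyte markers. With the 2 nearest genes on either side, 73 of 144 neighbours were called (50.7%, against 40.9% of all genes tested). Of the 144, 50 were higher (34.7%, against 22.1% of all genes tested) and 23 lower, and their median log2 fold change was −0.006. Glia calls numbered 0 when scaled by upper quartile and 2 after quantile normalization. Neuron calls numbered 2 with TMM, 8 with upper-quartile scaling, 8 with quantile normalization and 7 with DESeq2, and photoreceptor calls 8 with upper-quartile scaling; the cause was not tested. Calls of 9 named markers were lost under at least 1 alternative. The number of alternatives was 13 for Eaat1, 10 for ChAT, 9 for Rdl, 7 for Rh3 and 5 for Mdr65. It was 3 for wrapper, 2 each for Gs2 and Syt1, and 1 for ninaE, where the method may have fixed the loss. Calls of the 10 named neighbours were not lost, but these were picked by smallest adjusted p.

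The diets share replicate numbers, but over all genes tested the deviations of same-numbered libraries were not correlated (correlations from −0.02 to 0.01). With the number as a replicate block, 3854 genes were called, 34 neighbours, 2 neuron markers and 10 haemocyte markers (7 without it). Haemocyte markers differed from all genes in this: replicate 1 was the lowest library for 9 of 13 on HPLC and 12 of 13 on LPHC. Over all genes tested, replicate 1 was the lowest library for 23.7% on HPLC and 25.3% on LPHC. Protein relatives and promoter motifs were planned and not run.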
